A study of Polypedilum vanderplanki with 24 samples.

Results

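The genes g17485, g17486, g17488 and g17489 of the sleeping chironomid Polypedilum vanderplanki are thioredoxin-family genes that lie close together on the minus strand of chromosome 4. They were taken by identifier and position, without a threshold on expression but with earlier results of these data known. They are 4 of the 17782 genes in the expression table, and other thioredoxin genes beside them were not taken. mRNA was sequenced from Pv11, a cell line of this midge that survives almost complete drying once it has been treated with trehalose, and all groups are derivatives of that line. The Hsf1-/-; Hsf1-HaloTag/BlaR cells (rescue cells) carry a FLAG-tagged Hsf1 and HaloTag, with a P2A sequence between them, on an Hsf1-/- background. They also carry, as a separate cassette, a blasticidin resistance gene. The Hsf1-/- HaloTag/BlaR cells (control cells) carry HaloTag and the resistance gene alone on the same background, and the cassettes of both lines stand just before the stop codon of g7775 and are driven by its promoter. The Hsf1-/- cells hold an AcGFP1 and zeocin resistance insertion in exon 1 of Hsf1, which the rescue and control cells share. The WT cells are normal Pv11. Each edited line is a single sorted clone, so a property of a clone and an effect of its insert cannot be told apart. Each of the 4 lines was sampled after 48 h of trehalose (T48) and before trehalose (T0), with 3 libraries per group and 24 in all.

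Thioredoxins are small proteins that reduce disulfide bonds in other proteins through a pair of cysteines, and thioredoxin reductase returns them to the reduced form at the expense of NADPH. They supply electrons to peroxiredoxins and to methionine sulfoxide reductases, and so stand at the centre of the defence against oxidative damage, which drying and rewetting bring about. Heat shock factor 1 (HSF1) is a transcription factor that binds as a trimer to heat shock elements (HSEs), in which the short units TTC and GAA alternate at a fixed spacing.

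The values are TPM, transcript levels normalized for gene length and library size, and the table gives one mean per group. The spread over libraries was therefore not available, no test between groups could be run, and every difference below is a difference of 2 group means with no p-value. TPM also keeps no sequencing depth. Reads that could not be given to one gene were left out of the counts by the authors, so levels are uncertain for genes that share near-identical stretches; how alike these genes are in sequence was not measured here. The targeted gene, Hsf1 (g3611), did not exceed 0.307 TPM in any group. At T48 it lay at 0.139 TPM in rescue cells and 0.197 TPM in control cells. By western blot, the paper reports HSF1 protein in rescue cells and not in control cells, a difference that these levels do not show. The level of g3611 therefore does not check the genotype labels. The insert locus g7775 lay between 12040 TPM, in rescue cells at T48, and 102838 TPM, in WT cells at T0, over the 8 groups. It lay at 36840 TPM in rescue cells at T0 and at 37726 TPM in control cells at T48.

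In assembly Pv_5.2, g17485 occupies chr4:13663212-13663837 (626 bp), g17486 chr4:13664617-13665185 (569 bp), g17488 chr4:13667100-13667493 (394 bp) and g17489 chr4:13668895-13669405 (511 bp). Together they span 6.194 kb and no other annotated gene overlaps any of them. They are not strictly consecutive, since g17487, another thioredoxin-family gene on the same strand, lies between g17486 and g17488. The 4 genes sit inside a run of 22 genes (g17480 to g17501, 31.666 kb) of which 19 are on the list of thioredoxin genes that the study used. All 4 carry the InterPro thioredoxin domain and the Gene Ontology term cell redox homeostasis. The PROSITE thioredoxin active-site pattern, which covers the cysteine pair, was annotated in g17488 and in none of the other 3. The start site used for the motif search lay 86 bp upstream of the gene model in g17485, 74 bp in g17486 and 100 bp in g17489, and at its edge in g17488.

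Predicted HSEs were listed for g17485, g17486 and g17488 and for no part of the 1000 bp searched around the start site of g17489. The matched sequences are shown because they are the only HSF1-related sequence features that the table gives for these genes. Capitals mark the TTC, GAA and TTC units found in register, and the last 2 lines give the matches of 2 other thioredoxin genes of the run for comparison, one with all 3 units and one from the match with the lowest p-value among the thioredoxin genes of the run.
g17485: atctgGAAaaatc
g17486: TTCtaaaacaTTC
g17488: TTCtcGAAtattg
g17481: TTCaaGAAttTTC
g17491: TTCtagcattTTC
All are read 5′ to 3′ on the minus strand, which is the coding strand of these genes.

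The g17486 match (chr4:13665310-13665322) was the one nearest to its start site among the 4 genes, 51 to 63 bp upstream, and held the outer pair of TTC units without the central GAA. FIMO, the motif scanner used by the authors, gave it a score of 9.98 and p = 4.5e-05 with the HSF2 matrix. The g17488 match (chr4:13667784-13667796) lay 291 to 303 bp upstream and held a TTC and a GAA unit. FIMO found it with the HSF1, HSF2 and HSF4 matrices, with the lowest FIMO p of 1.12e-05 for HSF2. The g17485 match (chr4:13663537-13663549) lay 374 to 386 bp downstream of the start site, inside the gene model, and held the central unit alone. FIMO found it with the HSF4 matrix, at a FIMO p of 6.91e-05. These p-values are per match and are not corrected for the number of positions scanned.

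A listed HSE in 3 of 4 genes stood beside 27.6% of all genes (4901 of 17782), or 19.1% with the 4 matrices named in the methods, which leave the 3 of 4 as it is, and beside 5 of the other 15 thioredoxin genes of the run. Upstream of the start site, 2 of 4 genes had a match, against 12.0% of all genes (9.58% with the 4 named matrices). None of the 4 had a match with p under 0.00001, which 2.62% of all genes had. A match of 13 bp with at least 2 units in register was present in g17486 and g17488 and in 13.1% of all genes, and all 3 units were present in none of the 4 and in 1.21% of all genes. Among all 3523 sites of 13 bp in the table, 65.6% held 2 units, like those of g17486 and g17488, and 6.33% held 3. A match describes the letters in this window, and binding of HSF1 is not measured in the table. For g17488, the paper reports HSF1 binding at its promoter in rescue cells, measured by chromatin immunoprecipitation with a FLAG antibody and qPCR. The paper describes this binding as increased after trehalose. The promoters of g17485, g17486 and g17489 were not among those it assayed.

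**Figure D1:**
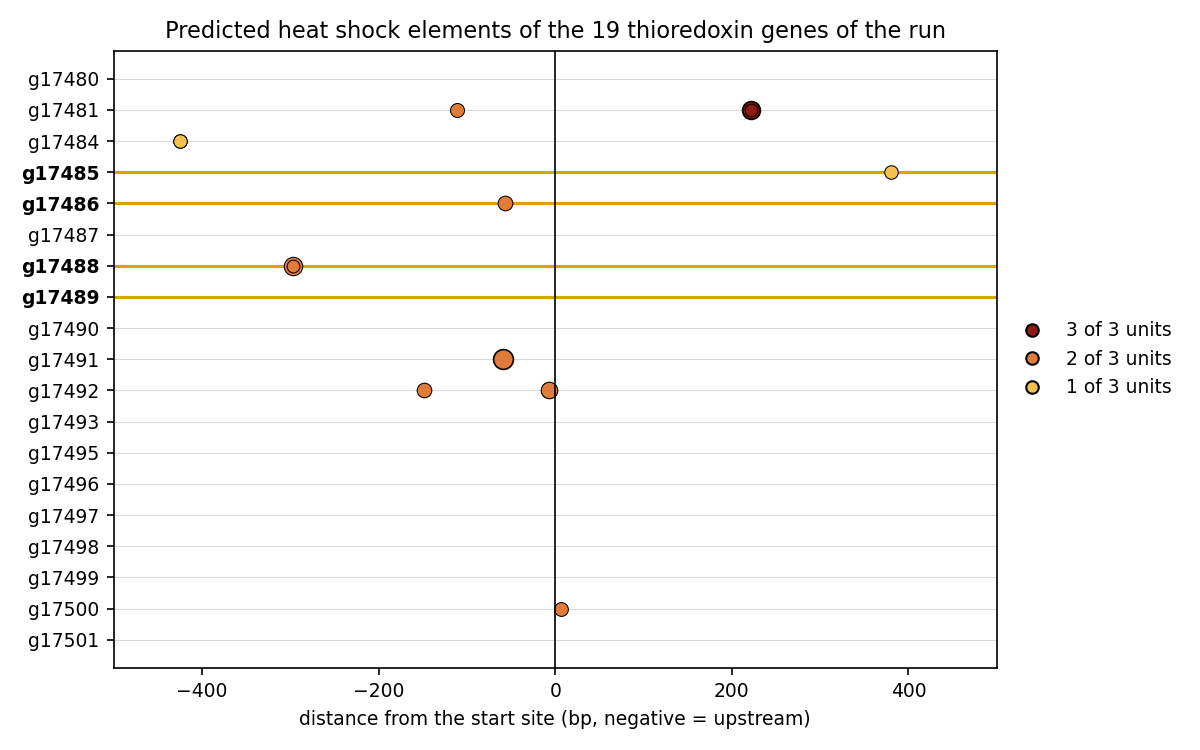
Predicted HSEs in the 19 thioredoxin genes of the run, by distance from the start site in bp (negative values are upstream). Each dot is one match with one matrix, dot size grows with −log10 of the FIMO p-value, colour gives the number of TTC and GAA units in register, and thick lines mark the 4 genes described here. The matches of g17486 and g17488 lie upstream, that of g17485 lies 374 to 386 bp downstream, and g17489 has none.

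The 4 genes had their highest level of all 8 groups in rescue cells at T48 and their second highest in WT cells at T48. For g17485, g17486 and g17489, the third highest level was that of rescue cells at T0. The genes differed in what remained elsewhere. For g17485 and g17486, the lines without HSF1 stayed at or below 2.13 TPM. By contrast, g17489 was at 14.9 TPM or more in every group, and g17488 was at 17.5 TPM or less in every group.

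For g17485, the mean level was 273 TPM at T48 and 5.25 TPM at T0 in rescue cells, and 0.607 TPM at T48 in control cells, in which it was listed at 0 at T0. In Hsf1-/- cells it was 2.02 TPM at T48 and 0.482 TPM at T0, and in WT cells it was 46.0 TPM at T48 and listed at 0 at T0. The gene was thus at or near 0 before trehalose in each line but the rescue cells.

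For g17486, rescue cells had 782 TPM at T48 and 22.5 TPM at T0, and control cells had 1.04 TPM at T48 and were listed at 0 at T0. Hsf1-/- cells had 2.13 TPM at T48 and were listed at 0 at T0, whereas WT cells had 40.3 TPM at T48 and 0.187 TPM at T0. This was the widest range of levels among the 4 genes. By level, g17486 was at rank 189 of the 11442 genes above 0 TPM in rescue cells at T48, and at rank 8151 of the 11330 above 0 TPM in control cells at T48.

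For g17488, rescue cells had 17.5 TPM at T48 and 0.655 TPM at T0, and control cells had 0.623 TPM at T48 and 0.303 TPM at T0. Hsf1-/- cells had 0.404 TPM at T48 and 0.934 TPM at T0, and WT cells had 7.09 TPM at T48 and were listed at 0 at T0. It was the least abundant of the 4 in both lines that have HSF1 at T48, and the order of its 6 lower groups, all under 1 TPM, cannot be read without the spread over libraries.

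For g17489, rescue cells had 369 TPM at T48 and 63.5 TPM at T0, and control cells had 49.8 TPM at T48 and 28.4 TPM at T0. Hsf1-/- cells had 57.4 TPM at T48 and 31.4 TPM at T0, and WT cells had 200.3 TPM at T48 and 14.9 TPM at T0. It was the one member well expressed without trehalose and without HSF1. Its annotation includes a predicted disordered stretch, which is not annotated in the other 3.

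**Figure D2:**
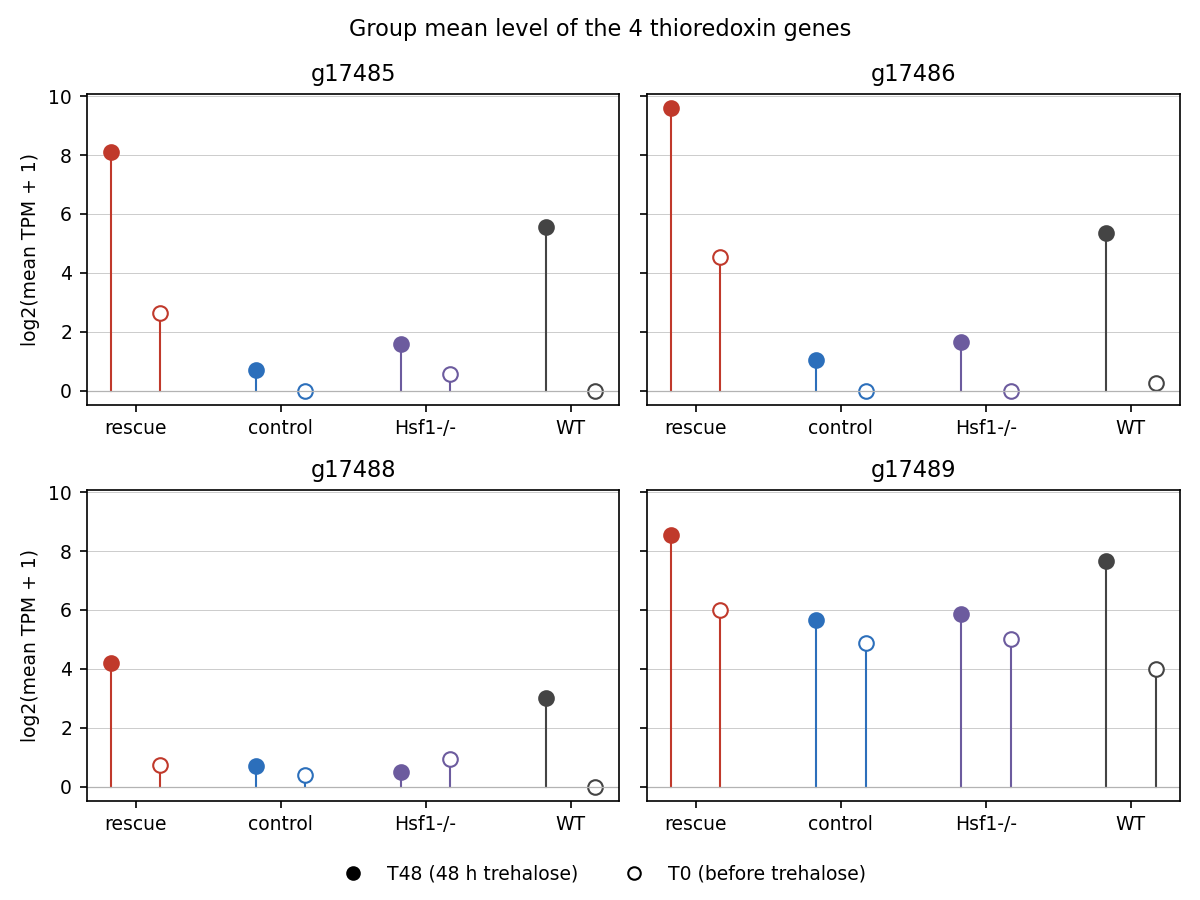
Group mean level of each of the 4 genes, as log2(mean TPM + 1), in rescue, control, Hsf1-/- and WT cells, with filled points for T48 and open points for T0 (each point is the authors' mean, with no error available). Rescue cells at T48 are highest in all panels (17.5 to 782 TPM), WT cells at T48 come next (7.09 to 200.3 TPM), and only g17489 is well above 0 in every group.

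Summed over the 4 genes, the level was 1442 TPM at T48 and 91.9 TPM at T0 in rescue cells, and 52.0 TPM at T48 and 28.7 TPM at T0 in control cells. The sum was 61.9 TPM at T48 and 32.8 TPM at T0 in Hsf1-/- cells, and 294 TPM at T48 and 15.0 TPM at T0 in WT cells. The composition of the sum differed with it. In rescue cells at T48, g17486 made up 54.2%, g17489 25.6%, g17485 18.9% and g17488 1.21% of the sum. In control cells at T48, g17489 alone made up 95.6%, and in Hsf1-/- cells at T48 it made up 92.6%. In WT cells at T48, g17489 still made up 68.2%, with 15.7% from g17485 and 13.7% from g17486, so rescue and WT cells differed in which of the 4 genes was the most abundant.

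**Figure D3:**
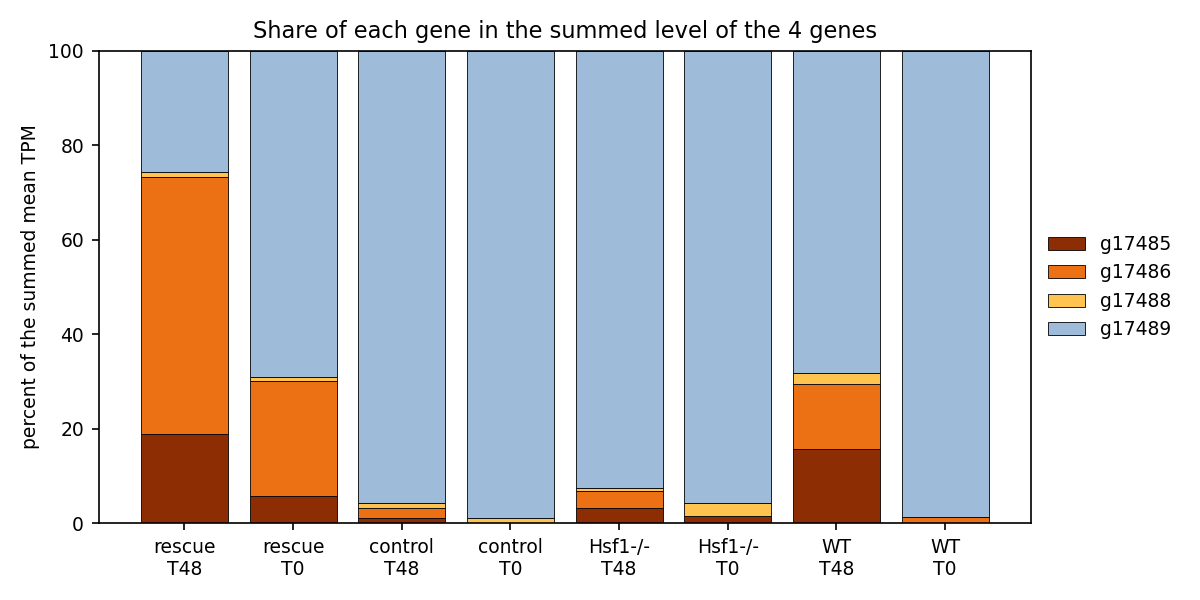
Share of each gene in the summed mean TPM of the 4 genes, in percent, for each line at T48 and T0. The g17489 share is 25.6% in rescue cells at T48 and 68.2% in WT cells at T48, and 92.6% or more in control and Hsf1-/- cells at both times.

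The comparison of rescue with control cells asks what returns with HSF1 on a shared Hsf1-/- background. At T48, all 4 genes were more than 2-fold higher in rescue cells, by the rule of a mean of at least 1 TPM in either group and a difference of at least 1 in log2(TPM + 1). Of the 8454 genes passing the TPM minimum, 5.83% were higher by this rule (9.64% after median-of-ratios scaling of the group means) and 14.2% were lower (7.02% after scaling). The difference on the log2(TPM + 1) scale was 8.59 for g17486, 7.41 for g17485, 3.51 for g17488 and 2.87 for g17489, with a median of 5.46 against −0.34 over all genes. Scaling moved the median of all genes to −0.01 and the 4 differences to 8.80, 7.59, 3.68 and 3.22 in the same order of genes. Ranked from the highest difference, g17486 was at rank 2 and g17485 at rank 6 of 8454. As a ratio of means, g17489 was 7.42-fold higher (9.53-fold after scaling).

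At T0, g17485 and g17486 had 5.25 and 22.5 TPM in rescue cells and were listed at 0 in control cells. g17489 was 2.23-fold higher in rescue cells (log2 difference 1.13). g17488 was below 1 TPM in both lines. By the same rule, 3 genes were higher, beside 4.57% of 7841 genes higher (5.17% after scaling) and 2.41% lower. Thus part of the difference between rescue and control cells was present before trehalose was added.

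The comparison of Hsf1-/- with WT cells asks what is lost when the endogenous gene is disrupted. At T48 all 4 genes were lower in Hsf1-/- cells by the rule, beside 4.84% of 8596 genes lower (4.75% after scaling) and 4.32% higher. The log2 difference was −3.96 for g17485, −3.72 for g17486, −2.53 for g17488 and −1.79 for g17489, with a median of −3.12 against 0.06 over all genes. In ratio, g17489 in Hsf1-/- cells was at 0.286 of its WT level, and g17485 at 0.0439 and g17486 at 0.0530 of theirs. At T0 the picture was different. g17489 was higher in Hsf1-/- cells, 31.4 TPM against 14.9 TPM in WT cells (log2 difference 1.03, beside 13.4% of 7847 genes higher and 5.59% lower by the rule). After scaling this difference was 0.74 and below the limit, and 7.16% of genes were higher and 9.01% lower. The other 3 genes were below 1 TPM in both lines at T0.

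**Figure D4:**
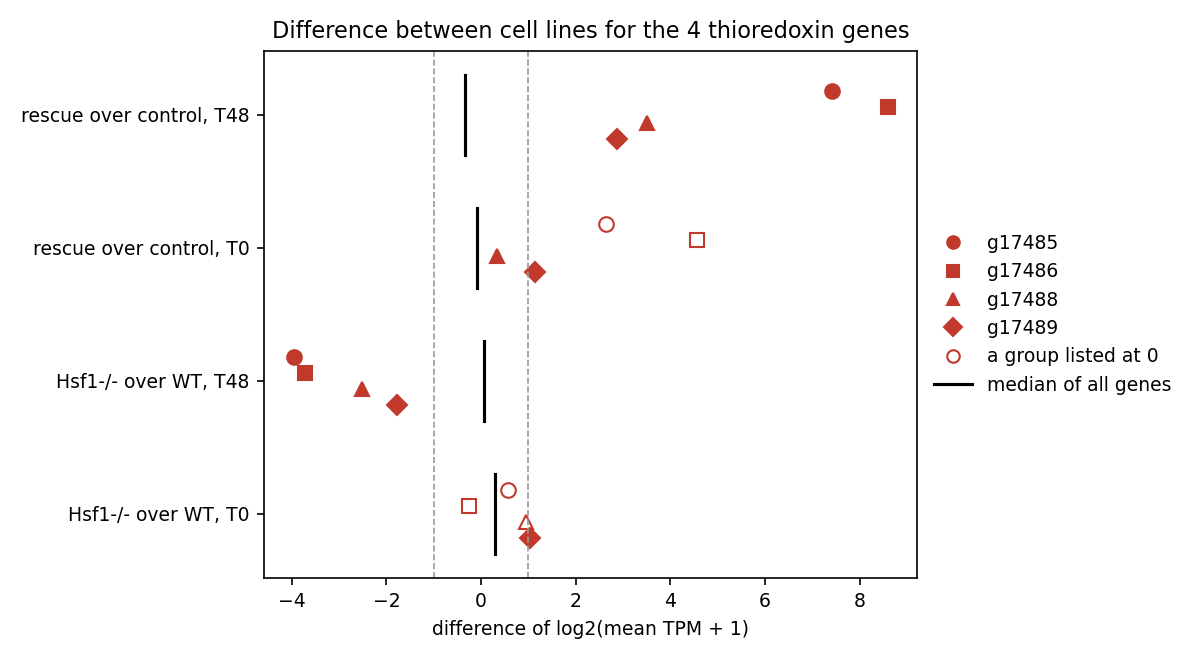
Difference of log2(mean TPM + 1) between cell lines for each of the 4 genes, for rescue over control cells and Hsf1-/- over WT cells at T48 and T0. Open symbols have one group listed at 0, the black bars are the medians of all genes, and the dashed lines mark the limit of 1 in either direction. At T48 the 4 genes lie between 2.87 and 8.59 for rescue over control cells and between −3.96 and −1.79 for Hsf1-/- over WT cells.

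Trehalose treatment was compared within each line. In rescue cells all 4 genes were higher at T48, beside 11.5% of 8162 genes higher (10.5% after scaling) and 6.7% lower. The ratio of T48 over T0 was 52.0 for g17485, 34.8 for g17486 and 5.82 for g17489, and g17488 differed by 3.48 on the log2 scale. In WT cells all 4 were also higher at T48, beside 25.7% of 8522 genes higher (12.6% after scaling) and 4.61% lower (11% after scaling). The ratio was 13.5 for g17489 in WT cells, or 8.98 after scaling, and no ratio is given for the others, which were at or near 0 at T0.

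In the lines without HSF1 the 4 genes were at most slightly higher at T48. In control cells g17489 had a T48 over T0 ratio of 1.75 (1.34 after scaling), and in Hsf1-/- cells one of 1.83 (1.46 after scaling). The rule marked 1 gene as higher in control cells (g17486, 1.04 TPM against a listed 0), beside 24.5% of 8330 genes higher (15.5% after scaling) and 8.25% lower. In Hsf1-/- cells it marked g17485 and g17486, both near 2 TPM, beside 22.7% of 8337 genes higher (15.5% after scaling) and 8.26% lower. After scaling no gene of the 4 passed in control cells and 1 passed in Hsf1-/- cells. In TPM, g17489 gained 306 in rescue cells and 21.3 in control cells, and 26.0 in Hsf1-/- cells and 185 in WT cells. For g17486 the gain was 759 in rescue cells and 1.04 in control cells. Whether these gains differ between lines beyond the spread of libraries could not be tested.

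Rescue cells were also set against WT cells, and control cells against Hsf1-/- cells. Both comparisons used the same groups, so they share samples with those above. Rescue cells exceeded WT cells at T48 by 4.24 on the log2 scale for g17486, 2.54 for g17485, 1.19 for g17488 and 0.88 for g17489. By the rule 3 of the 4 were higher as deposited, beside 4.54% of 8561 genes higher and 11.5% lower, and all 4 after scaling, beside 7.87% higher and 6.22% lower. At T0, 3 of the 4 were also higher in rescue than in WT cells, beside 6.62% of 7866 genes higher (4.9% after scaling) and 3.22% lower, with g17486 at 22.5 TPM in rescue cells and 0.187 TPM in WT cells. In g17489 the T0 ratio of rescue over WT cells was 4.27 and the T48 ratio 1.84. Control cells compared with their Hsf1-/- parent had none of the 4 past the rule at T48, beside 1.17% of 8395 genes higher and 1.5% lower. At T0 none of the 4 was past the rule either, beside 0.403% of 7699 genes higher and 1.38% lower. The log2 difference of g17489 between them was −0.14 at T0 and −0.20 at T48.

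Across the 8 group means of log2(TPM + 1), the 4 genes followed each other closely, with Pearson r from 0.90 (g17486 and g17488) to 0.98 (g17485 and g17486). These means come from the same libraries, and the coefficients are a description only. Among the 6424 genes of at least 10 TPM in some group, those most like the sum of the 4 were g10263 (r = 0.99), g17497 (r = 0.98), g17496 (r = 0.98), g16177 (r = 0.98) and g16175 (r = 0.97). g17496 and g17497 are thioredoxin genes of the same run, g16175 is annotated as PvLEA21, a late embryogenesis abundant protein, and g10263 and g16177 have no annotation. Pearson r takes no account of the size of a change. At T48, g10263 had 49.6 TPM in rescue cells and 31.6 TPM in control cells. The sum of the 4 genes was 1442 TPM and 52.0 TPM in these groups. In all, 80 of the 6424 genes reached r of at least 0.90. For g17485 the closest was g17496 (r = 0.99), for g17486 g17483 of the same run (r = 0.99), for g17488 g9776, annotated as a flavin monooxygenase (r = 0.98), and for g17489 g16180, annotated as PvLEA2 (r = 0.99).

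Most neighbours in the run were also higher in rescue than in control cells at T48, while some were at or near 0 or differed little. g17487, between the members, had 40.0 TPM in rescue cells and was listed at 0 in control cells at T48, and had 0.111 TPM in Hsf1-/- cells and 2.93 TPM in WT cells. Next to g17489, g17490 had 822 TPM in rescue cells and 155 TPM in control cells at T48, and like g17489 it was well above 0 in every group. The most abundant gene of the run was g17499, with 5412 TPM in rescue cells and 157 TPM in control cells at T48. The 4 genes made up 15.5% of the summed TPM of the run's thioredoxin genes in rescue cells at T48 and 11.9% in control cells. At the other end, g17480 was listed at 0 in all 8 groups, and g17493 and g17495 did not exceed 0.509 and 2.78 TPM in any group. Of the run's other 15 thioredoxin genes, 13 reached the TPM minimum in rescue or control cells at T48. Of these, 12 were more than 2-fold higher in rescue cells (median log2 difference 4.20), beside 5.83% of 8454 genes (9.64% after scaling). Only g17492 of these 13 was not, with 49.7 TPM in rescue cells and 40.0 TPM in control cells, and it has HSE matches 1 to 13 bp and 143 to 155 bp upstream. The genes of the run that are not on the thioredoxin list, g17482, g17483 and g17494, were also higher by the rule. Their log2 differences were 2.76, 4.18 and 1.88 in that order. Of the run's 8 thioredoxin genes with a listed HSE, which include 3 of the 4 described here, 7 were more than 2-fold higher in rescue cells at T48. Of the 11 without one, all 9 that reached the minimum were. The median log2 difference was 3.59 with a listed HSE and 5.36 without, beside the same 5.83% of all genes higher. A link between a listed HSE and the difference was not tested.

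**Figure D5:**
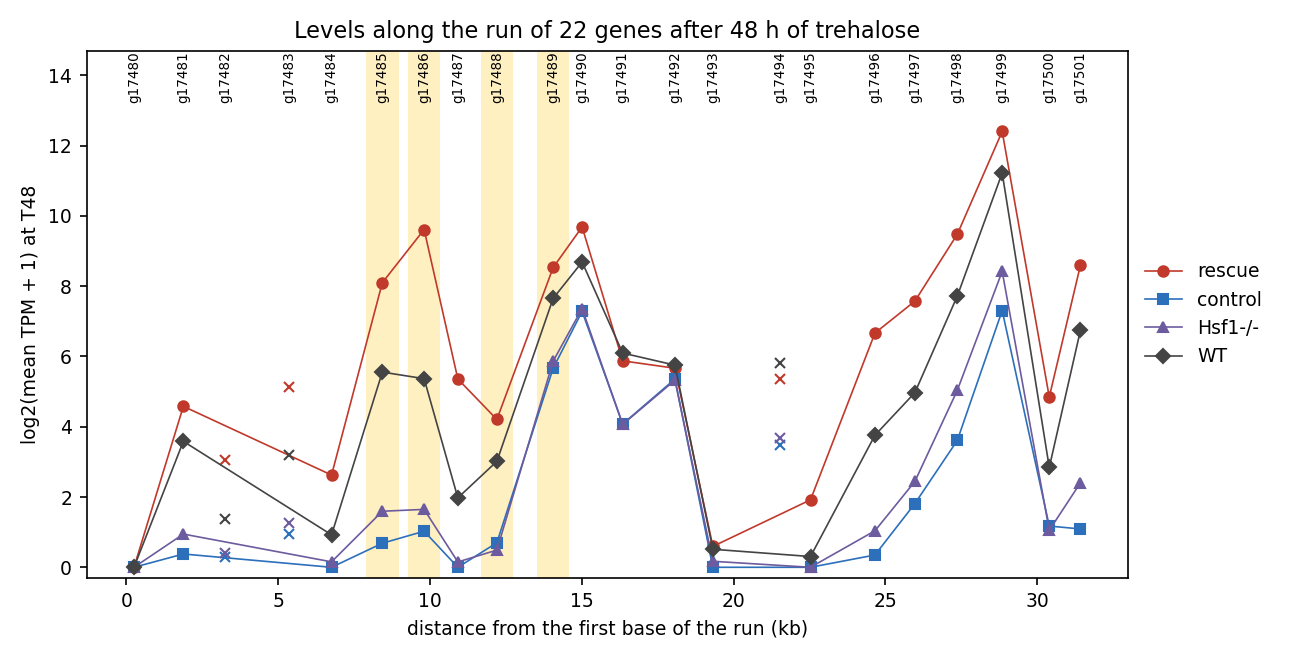
log2(mean TPM + 1) at T48 along the run of 22 genes, by distance from its first base in kb, for rescue, control, Hsf1-/- and WT cells. Lines join the 19 thioredoxin genes, crosses are the other 3 genes, and shaded bands mark the 4 genes described here. Rescue and WT cells lie far above control and Hsf1-/- cells at g17485 and g17486 and are closer to them at g17489 and g17490, while all lines lie close together at g17492 (39.1 to 52.9 TPM) and at 0 at g17480.

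Thioredoxin genes of the list also lie elsewhere in the genome. Of the 6 genes of the study's thioredoxin list outside the run, 4 reached the minimum and none was higher in rescue than in control cells at T48 as deposited (1 after scaling), with a median log2 difference of −0.33, beside −0.34 for all genes and 5.46 for the 4 genes. The 4 went both ways, with the highest difference, 0.86, in g7730 (1.20 after scaling) and the lowest, −0.93, in g3807. Of the 47 genes outside the run with the term cell redox homeostasis, 33 reached the minimum, 3 were higher and 1 was lower (8 and 0 after scaling).

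Enzymes that work with thioredoxins, and other redox enzymes, were found by their BLASTP description. Thioredoxin reductase (g13445), which recycles thioredoxin, had 454 TPM in rescue cells and 463 TPM in control cells at T48 (log2 difference −0.03, or 0.33 after scaling). Of 5 peroxiredoxins, which take electrons from thioredoxin to break down peroxides, g8572 was higher (296 TPM in rescue cells, 139 TPM in control cells) and g4792 was lower as deposited (38.5 TPM in rescue cells, 90.1 TPM in control cells) but not after scaling. The one gene described as a glutathione peroxidase, g13509, was higher at 1896 TPM in rescue cells and 206 TPM in control cells. The methionine sulfoxide reductase g3471 differed by 0.05 on the log2 scale. Catalase (g7294) and manganese superoxide dismutase (g7639) differed by −0.12 and −0.03 on the log2 scale. Among 7 glutathione S-transferases above the minimum, 1 was higher and 2 were lower (2 and 2 after scaling), and the 5 protein disulfide isomerases above it did not pass the rule (1 was higher after scaling). Next to differences of 2.87 to 8.59 in the 4 genes, only g13509, with 3.20, was of like size among these redox enzymes.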

How the data were processed

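Poly(A) RNA libraries of 24 samples (3 per group) were made with the NEBNext Ultra II kit. Per the labels and methods, the authors aligned reads with HISAT2, sorted with SAMtools 1.9, marked duplicates with Picard and counted with HTSeq 0.6.0, leaving out reads assignable to more than one gene. The deposited values are the authors' TPM, averaged per group, with FIMO scores and p-values of HSE matches within 500 bp of start sites (p under 0.0001, Pv_5.2). The q-values of these matches and the authors' cluster columns were not used. Depth per library is not given in this table, so no interval could be set.

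Gene rows, repeated per motif match, were reduced to 17782 genes (Python 3.11.15, pandas 2.3.3). Differences are of log2(TPM + 1), counted past 2-fold at a minimum of 1 TPM in either group, over 12 comparisons. This counting rule was checked on simulated data with known changes. No test between groups was possible. Alternatives were other pseudocounts and minima, median-of-ratios scaling over 8873 genes above 0 in all groups, and rescaling without the 10 most abundant genes. Besides the 4 genes, those named are the run g17480 to g17501, the highest and lowest of each list, the 5 most alike in pattern, Hsf1 and g7775. Members and lists were chosen with earlier results of these data known.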

Additional observations from a re-analysis of the deposited data

How the results depend on the processing

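No paired analysis was possible because the table holds group means and no replicate columns, and for the same reason no replicate could be left out. Of 144 recomputed counts of the 4 genes past 2-fold, 136 were equal to the count as deposited and 8 were not. The 24 counts without a minimum could not differ, because the 2-fold limit on log2(TPM + 1) already requires at least 1 TPM. The log2 difference was recomputed only for the 34 cases with both groups above 0. None of these 136 recomputed values changed sign, which a change of pseudocount alone cannot bring about. At T48 the counts for rescue over control cells and for Hsf1-/- over WT cells stayed at 4 under every alternative. With a minimum of 5 TPM, the number higher at T48 over T0 was 0 in control cells and 0 in Hsf1-/- cells, and after scaling it was 0 and 1. After scaling the number higher in Hsf1-/- over WT cells at T0 was 0, and the number higher in rescue over WT cells at T48 was 4, against 3 as deposited. For control over Hsf1-/- cells at T48, the number lower was 1 with a pseudocount of 0.1 TPM and 2 with 0.01 TPM, all from genes under 3 TPM. At a FIMO p under 0.00001, 0 of the 4 genes had an HSE match. Over all genes, scaling moved the counts higher and lower for rescue over control cells at T48 to 806 and 587, against 493 and 1201 as deposited, and for T48 over T0 in WT cells to 1066 and 935, against 2190 and 393. Because the table used here gives only means, the precision of levels under 1 TPM is unknown.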
